A study of Mus musculus with 17 samples.

Results

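Tnf and Il6, the genes of 2 inflammatory cytokines, were followed through RNA sequencing of mouse B cells and of bone marrow-derived dendritic cells (BMDC), which are grown from marrow precursors in culture and present antigen to T cells. They were selected by gene name and are 2 of the 55491 genes in the count table of each cell type. The study holds 17 libraries. Of these, 9 are from B cells of the spleen, 3 in each of 3 groups, and 8 are from BMDC, with 3 Control, 3 MSA2 and 2 combination libraries. Control cells received no drug. MSA2 cells were incubated with MSA2, a small-molecule agonist of the innate immune sensor STING. Cells of the last group, called the combination here, received MSA2 together with IPI-549 (eganelisib), an inhibitor of the lipid kinase PI3Kγ of white blood cells. The mice behind all groups are described alike, as KPC, a genetic model of pancreatic cancer, in the series description and as WT in the genotype label. Groups were read from the sample titles, because the treatment label says Control for all 17 libraries. The labels give no age, dose or time, no group received IPI-549 alone, and nothing says whether replicates came from different mice, so p-values measure the spread between these libraries, which may be technical.

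TNF is made as a membrane-bound trimer that the protease ADAM17 cuts free, and it signals through TNFR1 and TNFR2 to NF-κB and to cell death. IL-6 binds the receptor IL-6Rα, which pairs with gp130 (Il6st) and activates JAK kinases and the transcription factor STAT3. Both genes are switched on quickly when macrophages and dendritic cells sense microbial products, and STING reaches them mainly through NF-κB. Activated B cells make both cytokines as well. The messenger RNAs of both are short-lived, because proteins such as tristetraprolin (Zfp36) and Regnase-1 (Zc3h12a) bind their 3' ends and start decay.

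Tnf (ENSMUSG00000024401) lies on chromosome 17, 35199381 to 35202007, on the minus strand, and Il6 (ENSMUSG00000025746) on chromosome 5, 30013114 to 30019981, on the plus strand (GRCm38, GENCODE M21). The 250 bases before each start site are shown because both genes rose together with MSA2. They come from RefSeq (GRCm38.p6), at chr17:35202008-35202257 on the minus strand for Tnf and chr5:30012864-30013113 on the plus strand for Il6. Capitals mark the matches to 6 motifs, searched on both strands and chosen after the sequences had been read.
Tnf promoter: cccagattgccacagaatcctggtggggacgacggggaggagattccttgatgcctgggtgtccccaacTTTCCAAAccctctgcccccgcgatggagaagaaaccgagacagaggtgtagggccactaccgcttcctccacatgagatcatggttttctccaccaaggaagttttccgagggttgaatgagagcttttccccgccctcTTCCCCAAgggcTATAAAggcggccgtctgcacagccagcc
Il6 promoter: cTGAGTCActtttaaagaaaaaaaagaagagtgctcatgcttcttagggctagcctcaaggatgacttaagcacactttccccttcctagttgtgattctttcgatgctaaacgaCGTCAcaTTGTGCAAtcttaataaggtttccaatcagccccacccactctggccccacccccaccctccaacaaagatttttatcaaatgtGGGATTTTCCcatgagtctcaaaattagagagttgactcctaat
Counted back from the start site, the Il6 window held a match to the NF-kB consensus at -44 to -35, an AP-1 site (TGANTCA) at -249 to -243, a C/EBP site (TTNNGNAA) at -128 to -121 and a cyclic AMP response core (CGTCA) at -135 to -131. The Tnf window held a TATA box (TATAAA) at -29 to -24 and C/EBP matches on the opposite strand at -181 to -174 and -41 to -34. No matches overlapped. The core of the interferon-stimulated response element was in neither window. Among 32851 promoter windows, 3.90% held the NF-kB consensus, 6.75% the AP-1 site, 36.8% the C/EBP site, 17.8% the cyclic AMP response core, 12.4% the TATA box and 2.98% the response element core. Such matches describe letters in this window only.

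The 3' untranslated regions carry AU-rich elements, the sequences that decay proteins bind. The 30-base stretches with the densest run of the pentamer ATTTA are shown, with each pentamer in capitals (GENCODE M21 transcripts, GRCm38, at chr17:35199679-35199708 on the minus strand and chr5:30019677-30019706 on the plus strand).
Tnf: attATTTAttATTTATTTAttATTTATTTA
Il6: tttaattatttttaATTTAttgataATTTA
The Tnf stretch covered bases 437 to 466 after the stop codon and held 5 pentamers, and the Il6 stretch covered bases 129 to 158 and held 2. The whole Tnf region of 764 bases had 8 pentamers and 5 copies of the longer element TTATTTATT. The whole Il6 region of 427 bases had 6 pentamers and 0 copies of it. Among 2359 genes with a region within 20% of that length, 0.339% had as many pentamers as Tnf, and among 1857 genes 0.377% had as many as Il6. Both mRNAs therefore carried many more of these elements than most of similar length, where the medians were 1 and 0.

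Library totals were 41093440 to 51433008 counts for B cells. For BMDC they were 34760025 to 73166643, highest in MSA2 replicate 2. Levels are counts-per-million values (CPM) with library factors set within each cell type. The labelled B cells expressed all 12 B cell markers, and their sums were 8688 to 9279 CPM in Control, 4464 to 4981 with MSA2 and 8778 to 9557 in the combination. The MSA2 libraries of B cells stood apart, with markers of T cells, NK cells, monocytes and neutrophils far above Control. Their library numbers (8, 11 and 12) also follow those of Control and the combination (1 to 6), so a difference in processing cannot be told apart from MSA2 in B cells. In BMDC the library numbers of the groups are mixed. There the 15 monocyte and macrophage markers summed to 14579 to 20216 CPM and the 12 dendritic cell markers to 1923 to 2215, and none of either list was at 0 throughout a group. Most of the first sum was Lyz2 and most of the second Itgax. The B cell list summed to 35.1 to 50.0 CPM and the T cell list to 11.97 to 15.9 in BMDC. The dendritic cell list reached 1778 to 3510 CPM in the B cell libraries, so it did not set the 2 cell types apart. In such bulk libraries, fewer cells of a type and less RNA per cell cannot be told apart.

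Both genes were low in untreated cells and higher in every treated library of the same cell type. Tnf stood at 5.53, 7.85 and 6.38 CPM in the Control B cells, from 277, 359 and 284 counts. With MSA2 it was at 76.6, 83.8 and 53.4 CPM. In the combination it was at 118, 160.2 and 43.8 CPM. Every treated library was far above Control, while the combination libraries spread 3.66-fold among themselves and lay on both sides of the MSA2 group.

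Il6 was near the limit of detection in the Control B cells, with 7, 7 and 8 counts, or 0.140, 0.153 and 0.180 CPM. With MSA2 it was at 5.06, 5.56 and 3.84 CPM. In the combination it was at 3.16, 2.27 and 1.63 CPM. The 3 groups did not overlap, and the combination lay between Control and MSA2.

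In BMDC the treated group means were more than 10 times those of B cells for both genes. Tnf was at 6.24, 28.4 and 13.5 CPM in Control. With MSA2 it reached 2239, 1503 and 1876 CPM, the first from 85121 counts. In the combination it reached 1453 and 1204 CPM. The Control libraries differed 4.54-fold from lowest to highest, and the combination lay just under the MSA2 libraries.

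Il6 in BMDC was at 0.596, 1.99 and 0.432 CPM in Control. It was at 120.0, 164 and 130 CPM with MSA2. In the combination it was at 76.7 and 70.5 CPM. As for Tnf, Control replicate 2 was the highest Control library, 4.61-fold above the lowest, and the combination lay below every MSA2 library.

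**Figure D1:**
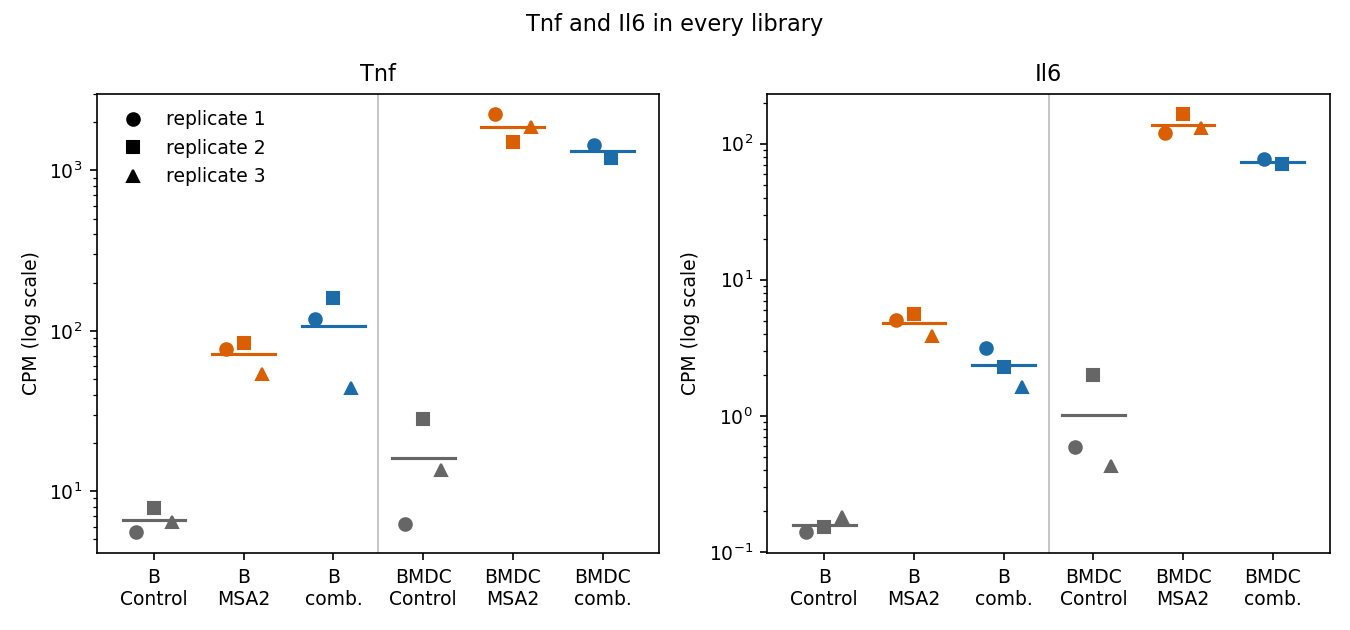
CPM of Tnf (left) and Il6 (right) on a log axis, 1 point per library with the shape giving the replicate and a line at each group mean (comb. = combination). All treated libraries lie above Control, BMDC reach about 1872 CPM of Tnf and 138 of Il6 with MSA2, and Tnf is widely spread in the B cell combination, from 43.8 to 160.2.

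Ordered by group mean, Tnf ran from 6.59 ± 1.17 CPM in Control B cells (SD, n = 3) to 16.0 ± 11.3 in Control BMDC, 71.3 ± 15.9 in MSA2 B cells, 107 ± 59.0 in combination B cells, 1328 ± 176 in combination BMDC (n = 2) and 1872 ± 368 in MSA2 BMDC. The ranges of the 2 Control groups overlapped, as did those of MSA2 and combination B cells. For Il6 the order was 0.158 ± 0.0204 in Control B cells, 1.01 ± 0.859 in Control BMDC, 2.35 ± 0.769 in combination B cells, 4.82 ± 0.886 in MSA2 B cells, 73.6 ± 4.38 in combination BMDC and 138 ± 22.9 in MSA2 BMDC. Of these neighbours only Control BMDC and combination B cells overlapped. B cells and BMDC were scaled separately, so this order across cell types is a description.

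Per kilobase of its main transcript (1639 bases for Tnf and 1141 for Il6), Tnf was the more abundant mRNA in all 6 groups. The level of Tnf per kilobase was 29.1 times that of Il6 in Control B cells, 10.3 times with MSA2 and 31.8 times in the combination. In BMDC it was 11.1, 9.46 and 12.6 times in the same order.

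The first comparison set MSA2 against Control in B cells, where a difference in processing cannot be told apart from MSA2. Both genes rose. Fold changes are given as log2 values ± standard error, and p-values are from the quasi-likelihood test of edgeR, adjusted over all genes by the Benjamini-Hochberg method and called under 0.05. Tnf rose by 3.44 ± 0.40, or 10.8-fold (adjusted p = 3.78e-05), and Il6 by 4.92 ± 0.33, or 30.2-fold (adjusted p = 3.67e-07). Each was higher in 3 of 3 MSA2 libraries than in every Control library. The share of all genes that separated in this way was not counted, here or in the other comparisons. The contrast was broad, since 24.9% of 16180 genes were called higher and 18.5% lower, and by size Tnf held rank 1125 and Il6 rank 616.

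Many markers of other cells moved in the same direction in these libraries. The T cell list summed to 1227 to 1543 CPM with MSA2 against 63.1 to 86.1 in Control, and all 12 of its genes rose. The monocyte and macrophage list summed to 1483 to 1664 against 55.6 to 76.0 (15 of 15 rose), and the neutrophil list to 1687 to 1764 against 2.41 to 35.8 (12 of 12 rose). NK cell markers summed to 355 to 435 against 14.3 to 19.9 (10 of 10 rose), those of mast cells and basophils rose in 7 of 7 tested, dendritic cell markers in 8 of 12, with 1 that fell, and stromal and endothelial markers in 4 of 8, with 1 that fell. The sums of these last lists were nevertheless lower with MSA2. The dendritic cell sum was 1778 to 2360 CPM against 2786 to 2967, and the stromal and endothelial sum 188 to 220 against 231 to 254. All 12 B cell markers fell, with a median of -0.87 against -0.01 over all genes. Of all these markers only the stromal gene Lum was at 0 throughout the MSA2 libraries. Monocytes and macrophages are known makers of both cytokines, and their part in the rise with MSA2 was not tested.

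The combination against Control asked what MSA2 with IPI-549 changed in B cells. Both genes rose here too. Tnf was higher by 4.03 ± 0.41, or 16.3-fold (adjusted p = 0.000341), and Il6 by 3.88 ± 0.33, or 14.7-fold (adjusted p = 8.11e-05), in 3 of 3 combination libraries each. Few genes did so: 0.686% of the 16180 were called higher and 0.371% lower, and Tnf and Il6 held ranks 29 and 30 by size. The markers of other cells were not raised in the combination. T cell markers summed to 52.1 to 59.2 CPM, NK cell markers to 6.56 to 10.7, those of monocytes and macrophages to 57.0 to 58.9 and those of neutrophils to 0.687 to 1.10. The monocyte sums lay within the Control range and the other 3 below it. No marker of any of the 8 lists rose, 1 T cell and 1 monocyte marker fell, and Cd3e and Bcl11b (T cells), Elane (neutrophils), Clec10a (dendritic cells), Mcpt8, Fcer1a and Prss34 (mast cells and basophils) and Lum and Pdgfrb (stroma) were at 0 in all 3 libraries.

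**Figure D2:**
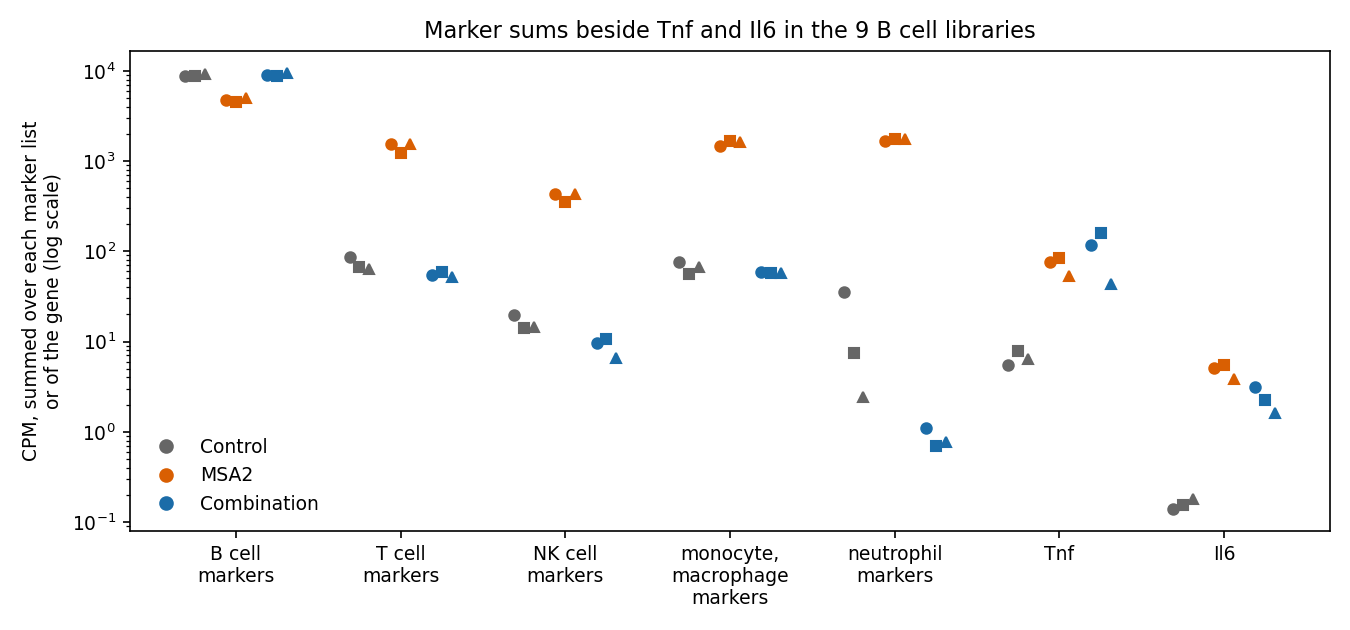
Summed CPM of the markers of 5 cell types, and the CPM of Tnf and Il6, in the 9 B cell libraries on a log axis, 1 point per library (shape = replicate). T cell, NK cell, myeloid and neutrophil sums are high in the MSA2 libraries alone, whereas Tnf and Il6 are high in the MSA2 and in the combination libraries.

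Adding IPI-549 to MSA2 was read from the combination against MSA2. In B cells Il6 was lower in the combination by a log2 difference of -1.03 ± 0.24, that is 2.05-fold lower (adjusted p = 0.00522), in 3 of 3 libraries. Tnf was not called, at 0.59 ± 0.36 (adjusted p = 0.221), and its groups overlapped. This rested on 1 library: without combination replicate 3, which had the lowest Tnf of that group, the difference was 0.97 (adjusted p = 0.00258), and Il6 stayed lower at -0.82 (adjusted p = 0.0156). Il6 was not called against a minimum change of 1.5-fold (adjusted p = 0.0746). Of 16180 genes 14.1% were called higher and 22.9% lower. The same marker lists that rose with MSA2 were lower in the combination (0 of 12 T cell markers rose and 12 fell, and 15 of 15 monocyte markers fell), and the B cell markers were higher in 12 of 12. Their part in the lower Il6 was not tested.

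**Figure D3:**
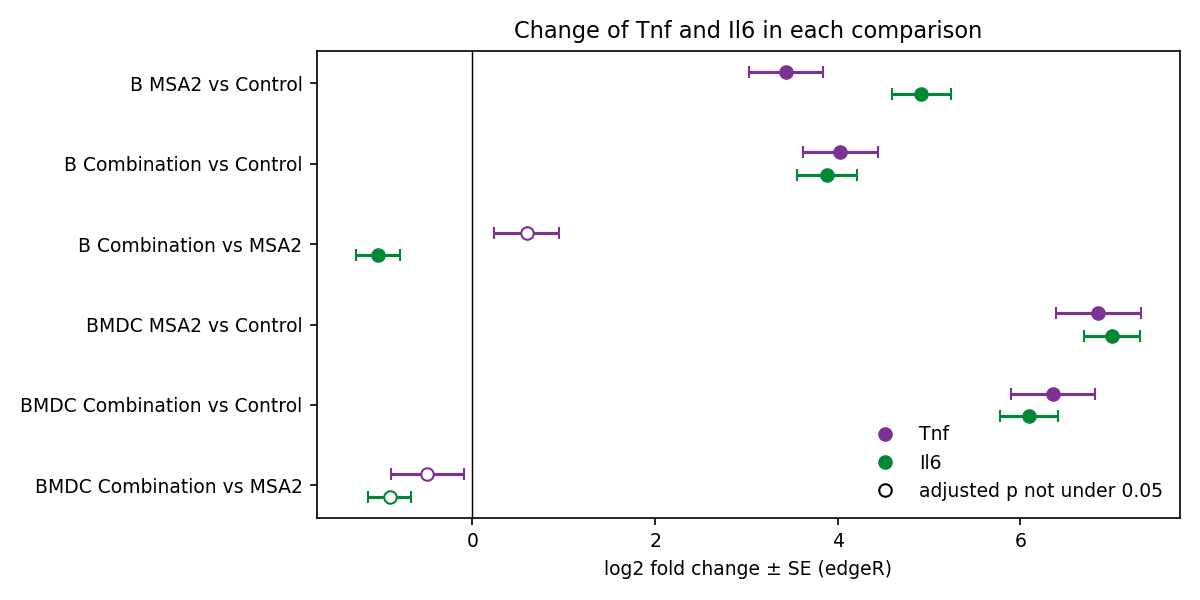
Log2 fold change ± SE of Tnf and Il6 in the 6 comparisons within a cell type, from edgeR, with open points where the adjusted p was not under 0.05. Against Control all 8 values are called, from 3.44 to 7.0, and of the 4 values for the combination against MSA2 only Il6 in B cells is called, at -1.03.

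In BMDC both genes were among the most strongly raised of all. With MSA2, Tnf rose by 6.85 ± 0.46, or 115.5-fold (adjusted p = 1.22e-06), and Il6 by 7.0 ± 0.31, or 128-fold (adjusted p = 4.36e-08), at ranks 21 and 19 of 14614 genes. In this contrast 14.6% of genes were called higher and 13.5% lower. In the combination Tnf rose by 6.36 ± 0.46, or 82.0-fold (adjusted p = 3.81e-06), and Il6 by 6.09 ± 0.32, or 68.3-fold (adjusted p = 3.19e-07), where 7.51% were called higher and 5.38% lower. All treated libraries lay above all Control libraries. The folds depended on Control replicate 2, the Control library with the highest level of both genes. Without it Tnf rose by 7.56 with MSA2 and 7.07 in the combination, and Il6 by 8.06 and 7.15. Some marker sums moved with MSA2. The monocyte and macrophage sum was 14579 to 17711 CPM with MSA2 against 17917 to 20216 in Control, and 16538 to 17286 in the combination. It was lower in every treated library than in Control, although 3 of its 15 genes rose and 4 fell with MSA2. Most of this sum was Lyz2, with a mean of 14734 CPM in Control and 12145 with MSA2, a change that edgeR did not call (adjusted p = 0.0536). The B cell sum, 35.1 to 37.6 against 46.1 to 50.0, and the T cell sum were also lower with MSA2, and the neutrophil and dendritic cell sums overlapped. Gene by gene, 2 of 6 T cell markers tested rose and 2 fell. Of 6 B cell markers tested 0 rose and 1 fell, and of 11 neutrophil markers tested 0 rose and 1 fell. Of the dendritic cell markers 5 of 11 rose and 2 fell with MSA2. Those that rose included the maturation genes Ccr7 (1.63) and Fscn1 (2.15) and the receptor gene Xcr1 (4.2, from a mean of 0.172 to 3.25 CPM). The 2 that fell were Clec9a (-0.75) and Itgax (-0.43). The part of these shifts in the rise of Tnf and Il6 was not tested.

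Neither gene was called between the combination and MSA2 in BMDC. Il6 differed by -0.91 ± 0.23, which is 1.87-fold lower, with an unadjusted p of 0.00261 in edgeR and an adjusted p of 0.243. Tnf differed by -0.49 ± 0.40 (adjusted p = 0.712). For both genes the 2 combination libraries lay below all 3 MSA2 libraries. Only 10 regroupings of 2 against 3 libraries exist, and the share of all genes in this order was not counted. By edgeR 0% of 14614 genes were called higher and 0% lower in this contrast, with 1594 at an unadjusted p under 0.05. DESeq2 called 162 genes, limma-voom 3, edgeR fitted on the compared groups alone 13 and edgeR without the filter on low counts 561. Il6 was called in the fit of the compared groups alone (-0.91, adjusted p = 0.0372). Both were called without the filter, Tnf at -0.51 (adjusted p = 8.49e-07) and Il6 at -0.92 (adjusted p = 2.87e-23). That fit used the same libraries and differed only in keeping every gene with any count, and the log2 differences hardly moved. Its small p-values are therefore no separate evidence of a difference.

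The response was then compared between the cell types in 1 fit of all 17 libraries. The rise of Tnf with MSA2 was larger in BMDC than in B cells by 3.43 ± 0.61 on the log2 scale (adjusted p = 0.000205), in a contrast where 37.0% of 17740 genes were called in either direction. The same difference for Il6 was 2.10 ± 0.82 (adjusted p = 0.0540). It was called without BMDC Control replicate 2 (3.15, adjusted p = 0.000667), without B cell combination replicate 1 (2.12, adjusted p = 0.0457) or replicate 3 (2.11, adjusted p = 0.0482), and with the title suffix as a replicate block (2.15, adjusted p = 0.0341). For Tnf, the difference without BMDC Control replicate 2 was 4.14 (adjusted p = 1.75e-05).

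For the combination against Control the rise was larger in BMDC by 2.31 ± 0.62 for Tnf (adjusted p = 0.0543) and 2.19 ± 0.84 for Il6 (adjusted p = 0.221), where 3.04% of genes were called. Without BMDC Control replicate 2 these were 3.02 (adjusted p = 0.00635) and 3.24 (adjusted p = 0.00738). Tnf was also called without B cell combination replicate 2 (2.71, adjusted p = 0.0262), without B cell MSA2 replicate 3 (2.30, adjusted p = 0.0462) and with the replicate block (2.33, adjusted p = 0.0434). The change from MSA2 to the combination differed between the cell types by -1.12 ± 0.60 for Tnf (adjusted p = 0.208) and 0.09 ± 0.38 for Il6 (adjusted p = 0.936), where 24.1% of genes were called. Without B cell combination replicate 3, that difference was -1.49 for Tnf (adjusted p = 0.0435) and -0.11 for Il6. The Il6 value was also below 0 without B cell MSA2 replicate 2 (-0.026) and without BMDC MSA2 replicate 1 (-0.0022).

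The balance between both cytokines was followed as Il6 counts per 100 Tnf counts in each library, which does not depend on library scaling. In B cells it was 2.53, 1.95 and 2.82 in Control. It was 6.61, 6.63 and 7.18 with MSA2. In the combination it was 2.67, 1.42 and 3.72. The MSA2 libraries thus lay above all others, and Control and combination overlapped. The same MSA2 libraries carried the high markers of T cells, NK cells, monocytes and neutrophils, and their part in the ratio was not tested. The Control ratios rest on 7 to 8 Il6 counts per library. On the log2 scale MSA2 differed from Control by 1.41 and the combination from MSA2 by -1.49, each with an exact two-sided permutation p of 0.1, the smallest that 3 against 3 or 2 against 3 libraries allow, and 0.3 adjusted over the 6 comparisons. The combination differed from Control by -0.08 (exact permutation p = 0.8), and this sign turned without combination replicate 2 (0.31) or Control replicate 3 (0.03).

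In BMDC the ratio was 9.55, 7.04 and 3.20 in Control. It was 5.36, 10.9 and 6.92 with MSA2 and 5.28 and 5.85 in the combination. All 3 groups overlapped, and the log2 differences were 0.28 for MSA2 and -0.14 for the combination against Control, and -0.41 for the combination against MSA2 (exact permutation p = 0.7, 0.8 and 0.4, adjusted p = 0.8 for each). The first turned to -0.0037 without MSA2 replicate 2 and to -0.17 without Control replicate 3, and the second to 0.20 without Control replicate 1.

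**Figure D4:**
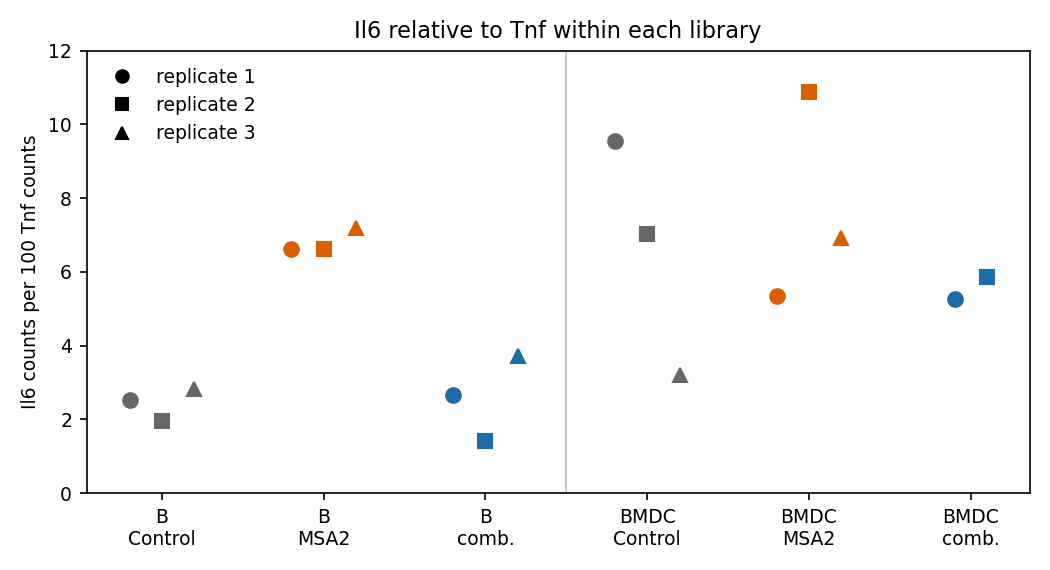
Il6 counts per 100 Tnf counts in each library, 1 point per library (shape = replicate, comb. = combination). The 3 MSA2 libraries of B cells lie between 6.61 and 7.18, above the other B cell libraries at 1.42 to 3.72, and the BMDC groups overlap between 3.20 and 10.9.

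The genes that act with TNF and IL-6 were read from 7 lists, and counts are set beside the share of all genes called. The lists share some genes, among them Tnfaip3, Nfkbia and Socs3, so their counts are not separate results. Some shares in B cells are given only here. For the combination against Control, 0.686% of genes were called higher and 0.371% lower. From MSA2 to the combination, 14.1% were called higher and 22.9% lower. The median over all genes lay between -0.02 and 0.01 in every comparison within a cell type. The receptors moved little beside their ligands in BMDC. Tnfrsf1a, which encodes the widely expressed receptor TNFR1, was at 91.6 ± 3.29 CPM in Control and 113 ± 16.8 with MSA2 (0.30 ± 0.09, adjusted p = 0.0319). Tnfrsf1b, the gene of TNFR2, fell from 225 ± 14.8 to 160 ± 5.11 CPM (-0.49 ± 0.06, adjusted p = 0.000184) and was also lower in the combination (-0.40, adjusted p = 0.00336). Both IL-6 receptor chains fell in BMDC. Il6ra went from 34.7 ± 2.59 to 19.6 ± 3.05 CPM with MSA2 (-0.83 ± 0.11, adjusted p = 0.000176) and Il6st from 161 ± 20.4 to 97.9 ± 4.75 (-0.72 ± 0.08, adjusted p = 8.18e-05). In the combination the log2 differences from Control were -0.75 (adjusted p = 0.00192) and -0.43 (adjusted p = 0.0111).

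In B cells the picture was another. Tnfrsf1a was at 2.02 ± 0.605 CPM in Control, 52.4 ± 5.68 with MSA2 (4.70 ± 0.23, adjusted p = 4.47e-08) and 1.97 ± 0.575 in the combination. Il6ra was at 33.5 ± 1.13, 87.2 ± 6.32 (1.38 ± 0.08, adjusted p = 9.29e-08) and 31.3 ± 1.23 CPM. Both receptors were high where the monocyte and T cell markers were high and at the Control level where those were not, and the part of other cells was not tested. Tnfrsf1b, at 344 ± 12.9 CPM in Control, and Il6st, at 210 ± 22.7, were not called in any B cell comparison.

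Of the 23 TNF receptor and proximal signalling genes, 7 rose and 3 fell in BMDC with MSA2 (median 0.10), where 14.6% of all genes rose and 13.5% fell. In the combination 5 rose and 2 fell, beside 7.51% and 5.38% of all genes. Tnfaip3, which encodes the deubiquitinase A20 that shuts off TNF signalling, rose from 39.4 ± 9.28 to 727 ± 69.3 CPM with MSA2 (4.21 ± 0.16, adjusted p = 1.77e-08). Cflar, whose product blocks caspase-8, rose by 2.49 ± 0.09 (adjusted p = 1.67e-08), and Rhbdf2, a partner of the TNF-releasing protease ADAM17, by 1.11 ± 0.15 (adjusted p = 0.000237). In B cells 4 rose and 6 fell with MSA2 (median -0.04), near the 24.9% and 18.5% of all genes. In the combination only Tnfaip3 was called, and it rose from 334 ± 15.1 to 904 ± 58.5 CPM (1.44 ± 0.08, adjusted p = 2.81e-06). From MSA2 to the combination 7 were higher and 4 lower in B cells, among them Birc3 (0.60), an inhibitor of apoptosis.

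Of the 12 IL-6 receptor and signalling genes, 1 rose and 3 fell in BMDC with MSA2 (median -0.10), beside 14.6% and 13.5% of all genes. In the combination 0 rose and 3 fell, beside 7.51% and 5.38%. Socs1, a feedback inhibitor of JAK kinases, was among those that fell (-0.92, adjusted p = 0.0318, and -1.47, adjusted p = 0.0142). In B cells 5 rose and 1 fell with MSA2 (median 0.12), beside 24.9% and 18.5% of all genes, with Socs1 (1.41, adjusted p = 0.0196) and Il6ra ahead. In the combination against Control 1 of the 12 was called in B cells: Socs3, the STAT3-induced inhibitor of gp130, fell from 105 ± 11.05 to 36.7 ± 4.53 CPM (-1.52 ± 0.11, adjusted p = 2.73e-05). It was also lower against MSA2 (-1.04 ± 0.11, adjusted p = 1.96e-05), where 0 were higher and 4 lower.

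IL-6 belongs to a family of ligands that share gp130, of which 2 of 5 tested rose and 0 fell in BMDC with MSA2, and 2 rose and 1 fell in the combination. Of all genes 14.6% rose and 13.5% fell with MSA2, and 7.51% and 5.38% in the combination. Lif, a cytokine of that family, rose in BMDC from 0.693 ± 0.249 to 20.3 ± 6.996 CPM with MSA2 (4.88 ± 0.29, adjusted p = 4.60e-07) and to 7.78 ± 1.21 in the combination (3.50 ± 0.32, adjusted p = 2.72e-05). Il27, a subunit of interleukin-27, rose by 4.68 ± 0.35 and 3.46 ± 0.39 (adjusted p = 2.90e-06 and 0.000134). Osm, the gene of oncostatin M, fell in the BMDC combination (-1.21 ± 0.19, adjusted p = 0.00146). In B cells Lif and Osm rose with MSA2 (5.57 and 2.22, 2 of 4 tested), beside 24.9% of all genes. They were lower in the combination than with MSA2 (-2.87 and -1.86), and 0 of 4 were called against Control in the combination.

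Of the 16 genes that control decay of cytokine mRNAs, 9 rose and 2 fell in BMDC with MSA2, with a median of 0.41 against -0.01 over all genes, of which 14.6% rose and 13.5% fell. In the combination 8 rose and 1 fell, beside 7.51% and 5.38%. Zc3h12c, a relative of Regnase-1, rose from 20.2 ± 2.76 to 107 ± 7.36 CPM (2.41 ± 0.10, adjusted p = 4.10e-08). Zc3h12a, Regnase-1 itself, which cuts Il6 mRNA, rose by 1.79 ± 0.14 (adjusted p = 3.41e-06). Arid5a, which protects Il6 mRNA from that cut, rose by 1.93 ± 0.09 (adjusted p = 7.17e-08). Genes of both directions of control therefore rose together. Mapkapk2, a kinase that stabilises Tnf mRNA, rose by 0.89, while Zfp36l2 and Zc3h12d fell (-0.29 and -0.51).

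In B cells 5 of the 16 rose and 2 fell with MSA2 (median 0.15), near the 24.9% and 18.5% of all genes. Dusp1 (1.0) and Zfp36l2 (0.82) were the most raised and Zc3h12d (-0.62) the most reduced. In the combination against Control 3 rose and 0 fell, and 3 of 16 stands against 0.686% of all genes called higher, although the list was drawn up with results of these data known. These were Zfp36l1, an AU-rich element binding protein (0.78 ± 0.12, adjusted p = 0.00844), Zc3h12a (0.78 ± 0.09, adjusted p = 0.000650) and Arid5a (0.69 ± 0.13, adjusted p = 0.0242). From MSA2 to the combination 4 were higher and 3 lower. Zfp36 itself, tristetraprolin, was at 417 ± 35.7 CPM in Control B cells and was called only in BMDC with MSA2 against Control (0.68 ± 0.18, adjusted p = 0.0173).

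Of the 21 transcription factors and inhibitors that act on cytokine genes, 13 rose and 3 fell in BMDC with MSA2 (median 0.58), beside 14.6% and 13.5% of all genes. In the combination 8 rose and 1 fell, beside 7.51% and 5.38%. Nfkbiz, the gene of IκBζ, an NF-κB cofactor needed for Il6 induction, rose from 3.92 ± 1.64 to 97.4 ± 4.47 CPM (4.60 ± 0.20, adjusted p = 4.10e-08) and to 89.9 ± 6.55 in the combination (4.49 ± 0.20, adjusted p = 1.14e-07). Nfkbia, the inhibitor IκBα, rose by 2.59 and 2.54, Fos, a subunit of AP-1, by 3.10 and 2.0, and Egr1, an immediate early factor, by 2.80 with MSA2. Cebpb, a factor first described at the IL6 promoter, went the other way, from 126 ± 7.76 to 24.7 ± 3.18 CPM with MSA2 (-2.35 ± 0.10, adjusted p = 4.18e-08) and 38.5 ± 4.93 in the combination (-1.72 ± 0.12, adjusted p = 2.21e-06). Junb also fell with MSA2 (-0.44).

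In B cells 8 of the 21 rose and 7 fell with MSA2 (median -0.06), beside 24.9% and 18.5% of all genes. Nfkbiz rose from 65.7 ± 5.74 to 249 ± 16.9 CPM (1.92 ± 0.09, adjusted p = 2.03e-08) and was at 217 ± 4.03 in the combination (1.73 ± 0.08, adjusted p = 6.65e-07). Cebpd (3.87), Jun (1.25) and Nfkbia (1.12) rose with MSA2, and Rel and Ets1, both abundant in lymphocytes, fell (-0.72 and -0.52). In the combination against Control 2 rose, Nfkbiz and Atf3 (1.36 ± 0.14, adjusted p = 0.000279), and Cebpb fell (-1.16 ± 0.15, adjusted p = 0.00216). From MSA2 to the combination 7 were higher and 3 lower, with Cebpd (-3.32) and Cebpb (-1.51) most reduced and Rel (0.77) most raised. Cebpb was thus lower than Control in both treated BMDC groups and in combination B cells, whereas in MSA2 B cells it was not called (0.35, adjusted p = 0.0720). Il6 was raised in all 4, and a link between both genes was not tested.

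**Figure D5:**
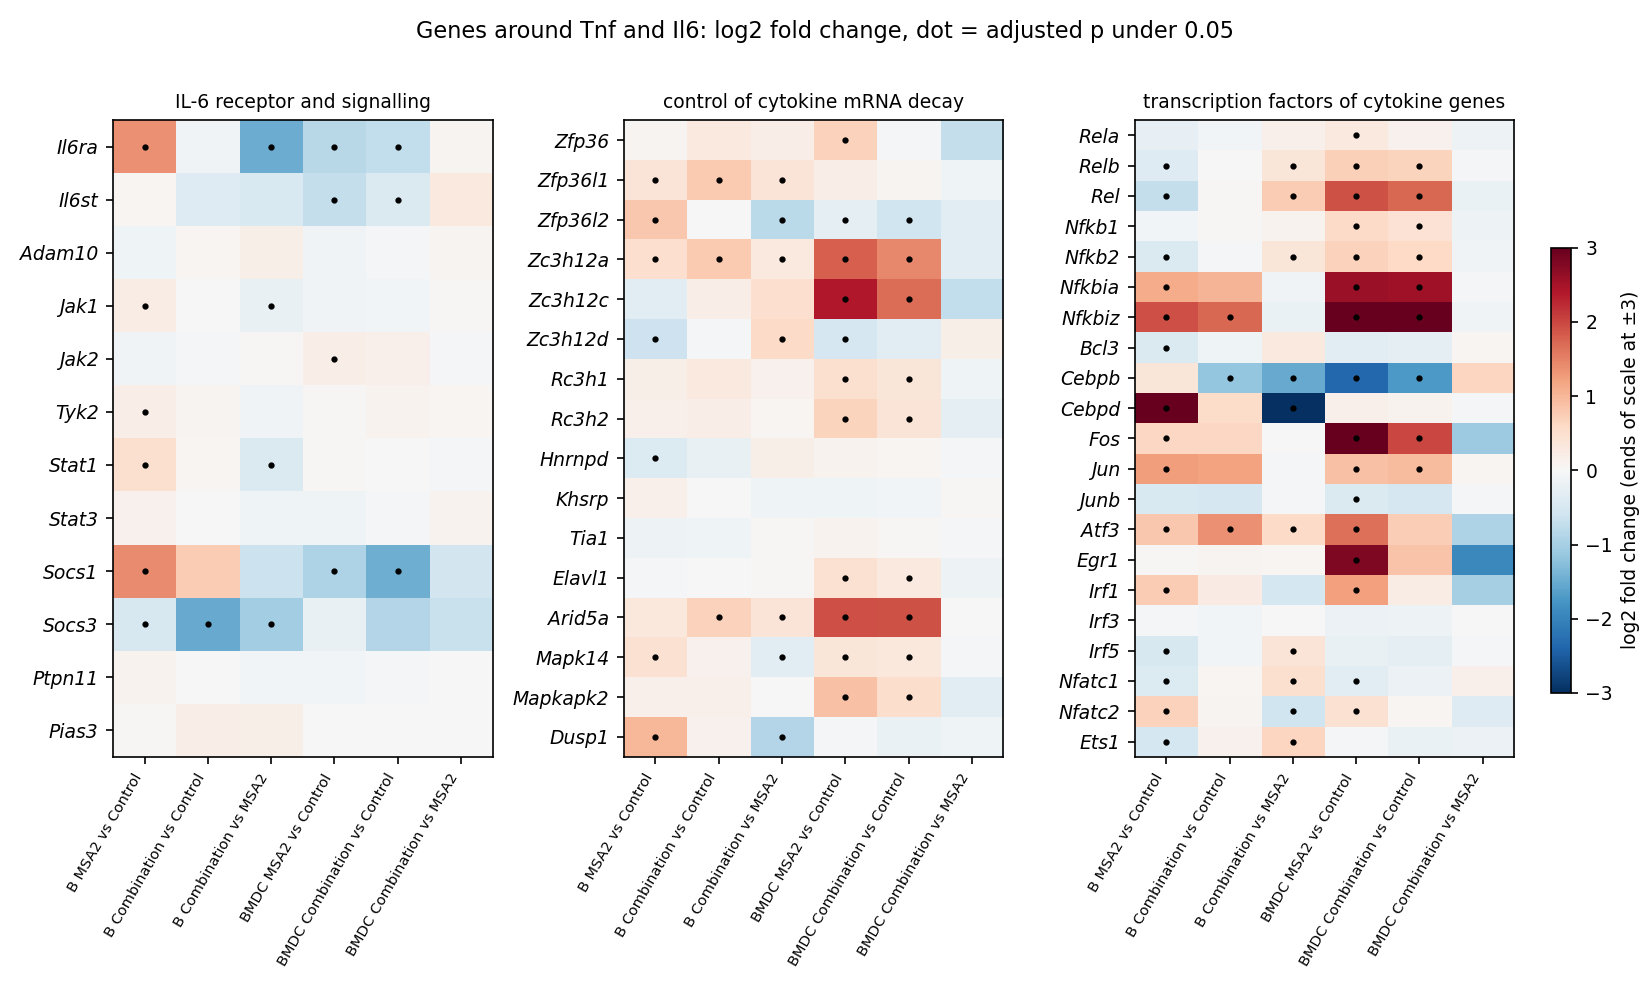
Log2 fold change of 3 gene lists (rows) in the 6 comparisons (columns), red higher and blue lower with colours ending at ±3, a dot marking an adjusted p under 0.05. Nfkbiz, Nfkbia and Arid5a are raised in the BMDC columns against Control, Cebpb is lowered there, and no dot stands in the column of the BMDC combination against MSA2.

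Genes that TNF is known to induce rose in BMDC in 13 of 16 tested with MSA2 and 12 of 16 in the combination, with 0 that fell in either. Of all genes 14.6% and 7.51% rose in these contrasts, and the list medians were 0.77 and 0.56. The chemokine genes Cxcl1 (4.42 ± 0.44, adjusted p = 2.47e-05), Cxcl2 (3.76 ± 0.29, adjusted p = 3.54e-06) and Ccl2 (3.01 ± 0.36, adjusted p = 9.13e-05) rose most beside Tnfaip3. Most of these genes are also direct NF-κB targets. In B cells 8 of 16 rose and 4 fell with MSA2 (median 0.61), beside 24.9% and 18.5% of all genes, led by Vcam1 (5.79) and Cxcl2 (5.62), with Birc3 (-0.65) and Nfkbie (-0.50) lower. In the combination against Control 1 of 16 rose, Tnfaip3, and 0 fell. Vcam1 was at 4.29 ± 1.78 CPM in Control, 239 ± 43.9 with MSA2 and 3.51 ± 1.03 in the combination, the order in which the marker sums of other cells ran. From MSA2 to the combination 5 of the 16 were higher and 6 lower.

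Of the genes that IL-6 induces through STAT3, 2 of 12 rose and 4 fell in BMDC with MSA2 (median -0.22), beside 14.6% and 13.5% of all genes. In the combination 2 rose and 2 fell, beside 7.51% and 5.38%. Fgl2, a secreted regulator of immune cells, rose from 195 ± 7.07 to 1682 ± 279.7 CPM (3.11 ± 0.13, adjusted p = 4.18e-08) and Pim1, a kinase, by 0.46, while Mcl1 and Il4ra both showed -0.70. In B cells 3 of 11 rose and 4 fell with MSA2 (median -0.32), beside 24.9% and 18.5% of all genes, led by Lcn2 (7.38), which neutrophils also make, with Socs3 and Il4ra lower (-0.48 each). In the combination 0 rose and 1 fell, Socs3, and between combination and MSA2 2 were higher and 4 lower. None of the 7 lists had a called gene in BMDC between the combination and MSA2.

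Tnf lies in the class III region of the major histocompatibility complex between the lymphotoxin genes, and its neighbours were read beside it. Of 29 genes within 100 kb of Tnf, 15 had a mean of at least 1 CPM in a group. In BMDC with MSA2 3 of these 15 rose and 1 fell, and in B cells 3 of 14 tested rose and 1 fell, counts near the 14.6% and 24.9% of all genes called higher. Lta, the gene of lymphotoxin α, which starts or ends 1158 bases from Tnf on the same strand, was the neighbour that moved with it. Its mean was 5.64 ± 1.98 CPM in Control BMDC, 49.8 ± 12.3 with MSA2 (3.15 ± 0.23, adjusted p = 2.12e-06) and 34.9 ± 2.32 in the combination (2.64 ± 0.24, adjusted p = 2.64e-05). In B cells it was at 5.91 ± 0.679, 9.84 ± 2.23 (0.74 ± 0.23, adjusted p = 0.0234) and 15.2 ± 4.93 CPM (1.37 ± 0.23, adjusted p = 0.0147), higher in the combination than with MSA2 (0.63 ± 0.22, adjusted p = 0.0473). Whether the libraries kept strand is not given in the sources used here, and reads of closely packed genes may be assigned with error.

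Ltb, the gene of lymphotoxin β, 3061 bases away on the opposite strand, did not follow. It was at 250 ± 20.7 CPM in Control B cells, 214 ± 25.8 with MSA2 and 274 ± 19.9 in the combination, with a call only for the combination against MSA2 (0.35 ± 0.10, adjusted p = 0.0196). The myeloid genes Aif1 and Lst1 rose in B cells with MSA2 (2.69 and 3.11) and were lower in the combination (-2.73 and -3.43), as the monocyte markers were. In BMDC Aif1 (0.25) and the unnamed transcript Gm16181 (0.91) rose with MSA2, and D17H6S53E fell (-0.58). In the B cells with MSA2 the gene that fell was Gpank1 (-0.31). Around Il6 only 2 of 7 genes reached 1 CPM. Tyms, an enzyme of DNA synthesis 38221 bases away, rose with MSA2 in B cells (0.74 ± 0.15, adjusted p = 0.00168) and BMDC (0.29, adjusted p = 0.0103), and Hadha, 98323 bases away, was not called in any comparison.

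Last, the genes with the most similar profile were sought by the root mean square difference in log2(CPM + 0.5) over all libraries of a cell type, with each gene centred on its own mean, so that a smaller value means a closer profile. Among 9841 genes in the 8 BMDC libraries, Tnf was closest to Ifit2 (0.47), Oasl1 (0.49), Ifit3 (0.49), Ifit3b (0.51) and Il6 (0.53). Il6 was closest to Oasl1 (0.30), Ifit2 (0.31), Ifit3 (0.35), Isg15 (0.39) and Ifit3b (0.45), with Tnf at rank 7. The closest genes in BMDC were thus antiviral genes that interferon induces, beside the other cytokine. Ifit3 and Ifit3b are near copies of each other, and reads may be divided between them with error.

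In the 9 B cell libraries, among 9838 genes, Tnf was closest to Ccl4, a chemokine gene (0.47), Ifna16 (0.47), Oasl1 (0.49), Rsad2 (0.54) and Metrnl (0.54). Il6 was closest to Rtp4 (0.24), Ifit1bl1 (0.31), Rnd3 (0.41), Rsad2 (0.45) and Metrnl (0.47). In Control B cells Il6 lay at 0.140 to 0.180 CPM, below the added 0.5, so its step from Control is reduced in this measure. Il6 came at rank 14 for Tnf (0.81), and Tnf at rank 41 for Il6, so both cytokines were further apart in B cells than in BMDC. Ifna16 and Ifit1bl1 have close relatives with which they share reads. Over the 3 groups these profiles mostly follow the step from untreated to treated cells, which many genes share.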

How the data were processed

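Total RNA of 17 libraries was sequenced. The authors deposited expected counts per gene, per the submitters' processing notes, which name the build GRCm38, RSEM 1.3.3 for the estimates, STAR 2.7.8a, cutadapt 4.8, MultiQC 1.20 and FastQC 0.11.8. RSEM divides reads that match several genes. Annotation release and strand are not given in the sources used here. Counts were rounded and each cell type was fitted in edgeR 4.0.16 (R 4.3.3) with TMM factors, filterByExpr and the quasi-likelihood test over 3 groups, and both cell types in 1 fit for differences between them. The edgeR tests within each cell type were checked on simulated data, and the other tests were not. The alternatives tried were other library factors (upper quartile, RLE), a filter of 1 CPM in 3 libraries or none, limma-voom (limma 3.58.1), DESeq2 1.42.0, a minimum change of 1.5-fold (glmTreat), fits of only the groups compared, a replicate block from the title suffix, each library left out, and for ratios (pseudocount 0.5) a pseudocount of 1.

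Members and lists were chosen with earlier results of these data known. Named genes were the receptors, up to 4 called genes per list with the largest change and up to 2 against it, neighbours within 100 kb with at least 1 CPM, and the 5 closest profiles among genes of at least 5 CPM. In the TNF and IL-6 signalling lists, genes other than receptors, and Zfp36, were named after their values were seen. After removal of group means, B cell libraries with the same title suffix correlated at 0.23, 0.26 and 0.43 between MSA2 and combination. The same-suffix pairs with Control ran from -0.03 to 0.12 and those of BMDC from -0.15 to 0.11. Pairs with unlike suffixes were not computed, so whether the suffix pairs libraries was not tested, and no label gives a pairing.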

Additional observations from a re-analysis of the deposited data

Results flagged for a closer look

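The rise of Tnf with MSA2 differed between the cell types by a test of the difference itself. It was larger in BMDC than in B cells by 3.43 ± 0.61 on the log2 scale (edgeR, adjusted p = 0.000205). The rises were 6.85 in BMDC (3 of 3 MSA2 libraries above all Control libraries) and 3.44 in B cells (3 of 3). In the B cell MSA2 libraries, markers of T cells and myeloid cells were high as well, and their part in this difference was not tested.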

How the results depend on the processing

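Every value of Tnf and Il6 against Control within a cell type kept its direction and its call under all alternatives run, including each library left out. The other results moved as follows, and the causes were not tested beyond what each alternative's construction gives.

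Il6 in B cells between combination and MSA2 was -1.03 (adjusted p = 0.0746) by glmTreat. With the replicate block it was -1.06 (adjusted p = 0.00252) and Tnf 0.48 (adjusted p = 0.160). With the block on those 2 groups alone, an alternative chosen after seeing the data, they were -1.06 (adjusted p = 0.000901) and 0.44 (adjusted p = 0.0798). Leaving out single libraries gave 0.19 to 0.97 for Tnf there. Between combination and MSA2 in BMDC, no filter gave -0.51 for Tnf (adjusted p = 8.49e-07) and -0.92 for Il6 (adjusted p = 2.87e-23), and the compared groups alone -0.91 for Il6. The fit without a filter used the same libraries with low-count genes added, and its p-values are no separate evidence.

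Of the differences between cell types, Il6 with MSA2 was 2.11 without a filter, 2.14 by DESeq2, 2.47 by limma-voom and 2.15 with the block, all called, and 1.76 to 3.15 with single libraries left out. For combination against Control, Tnf was 2.29 without a filter, 2.31 by DESeq2 and 2.33 with the block, and 1.91 to 3.02 with single libraries left out. Il6 was 2.18 without a filter and 2.23 by DESeq2, and 1.85 to 3.24. For combination against MSA2, Tnf was -1.12 without a filter (adjusted p = 0.00566) and -1.49 to -0.72 with libraries left out. Il6 turned to -0.044 with the block and ran from -0.11 to 0.36. The block changed no other call of Tnf or Il6. Here too the fits without a filter used the same libraries with low-count genes added, so their calls are no separate evidence.

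Ratio differences with single libraries left out ran from -0.39 to 0.31 for combination against Control in B cells, from -0.58 to 0.20 in BMDC, and from -0.17 to 0.61 for MSA2 against Control in BMDC.

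Genes called in B cells were 7016 for MSA2 and 5985 for combination against MSA2, and 2837 and 2614 by glmTreat. For combination against Control they were 171, and 359 without a filter, 391 by DESeq2, 64 by glmTreat, 260 with the block, and 91 and 112 without Control replicate 2 and combination replicate 1. In BMDC they were 4118 and 1883 against Control, 772 and 427 by glmTreat, 843 and 1036 for the combination with 1 of its libraries, whose lone sample is assumed to vary like the others. Between combination and MSA2 they were 0, 561 without a filter and up to 99 without MSA2 replicate 2. Il6 had only 7 to 8 counts per Control library of B cells, so its Control level carries a large counting error.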
